A study of Arabidopsis thaliana with 8 samples.

Results

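Transcript levels at 12h were compared with those at 04h in rosettes, taken whole, of the pgm mutant of *Arabidopsis thaliana*. The comparison rests on 4 of the 8 arrays of the series, namely both arrays of 12h (A and B), the only array of 04h and the only array of 08h. The array of 08h was used to see where a level stood on the way. Genes were described where the 04h value lay at least 1 log2 unit outside the range of both 12h arrays, on the scale log2(intensity + 16). Of 22746 probe sets other than controls, 616 met this condition (2.71%).

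All plants carried the pgm mutation in the Col-0 background and were 5 to 6 weeks old, and wild-type plants are not analysed here. Each sample was the pooled powder of 15 rosettes from 5 harvests of 3, frozen in the growth chamber. The series labels 6 hours, with 2 arrays at 00h and at 12h and 1 array at 04h, 08h, 16h and 20h. When the light went on and off, and whether A and B were harvested from different plants, is not stated in the labels used here. A p-value can therefore speak only of how far these arrays scatter, and that scatter may be technical. With 1 array at 04h, the error of that array enters every difference from it. In whole rosettes, fewer cells of a type and less RNA per cell cannot be told apart.

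The pgm mutant lacks plastidial phosphoglucomutase, an enzyme on the path from photosynthetic sugar phosphates to starch. A wild-type leaf stores part of its daytime carbon as starch and breaks it down at night. Leaves of pgm make almost no starch and hold much soluble sugar in the light, which they use up early in the night. Transcript levels of many leaf genes follow the circadian clock, light and sugars, so that hours within one day can differ widely.

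The array of 04h and those of 12h differed more than the 12h arrays did from each other. The 12h arrays were at least 1 log2 unit apart at 328 probe sets (1.44%), and the 00h arrays at 286 (1.26%). The 04h array was that far from 12h A at 1192 probe sets (5.24%) and from 12h B at 1046 (4.6%). The 08h array was that far from 04h at 656 probe sets (2.88%), from 12h A at 562 (2.47%) and from 12h B at 354 (1.56%). It was thus about as near to 12h B as the 12h arrays were to each other, with correlations of 0.9775 and 0.975.

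Some technical measures separated the arrays. The bacterial hybridisation controls had a median intensity of 408.2 on 12h A and 122.2 on 12h B, against 125.3 at 04h and 94.6 at 08h, and 00h A was the other array with high controls (367.5). Probe sets for the 3′ and 5′ ends of actin gave a ratio of 3.11 and 3.19 at 12h, above 2.55 at 04h and 2.53 at 08h, while the GAPDH ratio was 1.18 and 0.94 at 12h and 0.99 at the other 2 hours. A fit with the level of the hybridisation controls as a block (control block) was run as well. Its adjusted p is given beside some of the genes whose call it changed. Among genes named below without it, *AOR*, AT4G15700, AT1G66430, AT1G65490, AT5G62360 and AT1G53035 passed only with the control block or another alternative. Of the genes shown with it, *RCA*, *psbK*, *EXPA8* and AT2G20670 passed with the control block but not with a block by the letter A or B. The part of the actin ratio in the results was not tested. Of the leaf mesophyll and photosynthesis markers, 5 of 17 had a named probe set. All of these were bright at 04h and 12h, *PRK* for example with 2802.3 at 04h and 3327.5 and 2529.2 at 12h. *PYK10*, a root marker, read 134.4 at 04h and 120.2 and 126.8 at 12h, and *STZ*, a marker of handling and wounding, read 39 at 04h and 44.1 and 23.7 at 12h.

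Of the 616 probe sets, 277 were low at 04h (1.22% of all), with 04h at least 1 log2 unit below both 12h arrays, and 339 were high at 04h (1.49%). With each array scaled to a common median the same rule gave 334 and 263, so which direction held more probe sets turned with the scaling. The distance from 04h to the nearer 12h array had a median of 1.34 log2 units in the first group, with 45 at 2 or more and a maximum of 4.72. In the second group the median was 1.29, with 36 at 2 or more and a maximum of 3.98. The platform's gene table named exactly 1 gene for 131 of the low and 141 of the high probe sets.

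A limma fit over all 8 arrays, with the hour as a factor, tested 13647 probe sets. It took its spread from the pairs of 00h and 12h. Between 12h and 04h, 364 passed an adjusted p of 0.05 (2.67%), of which 187 were higher (1.37%) and 177 lower (1.3%) at 12h, and 2012 had an unadjusted p under 0.05. All 364 were among the 616, with changes of at least 1.11 log2 units. The median change over all tested probe sets was -0.06. Without the filter on dim probe sets 39 of 22746 passed, 35 of them among the 364. With the control block 950 of 13647 passed, including all 364. Of 53 named genes that had not passed, 28 did so with the control block. Genes were named largely for their distance from the 12h range, so these 28 do not give a rate. The fit with the control block had 1 residual degree of freedom, against 2 without it.

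**Figure D1:**
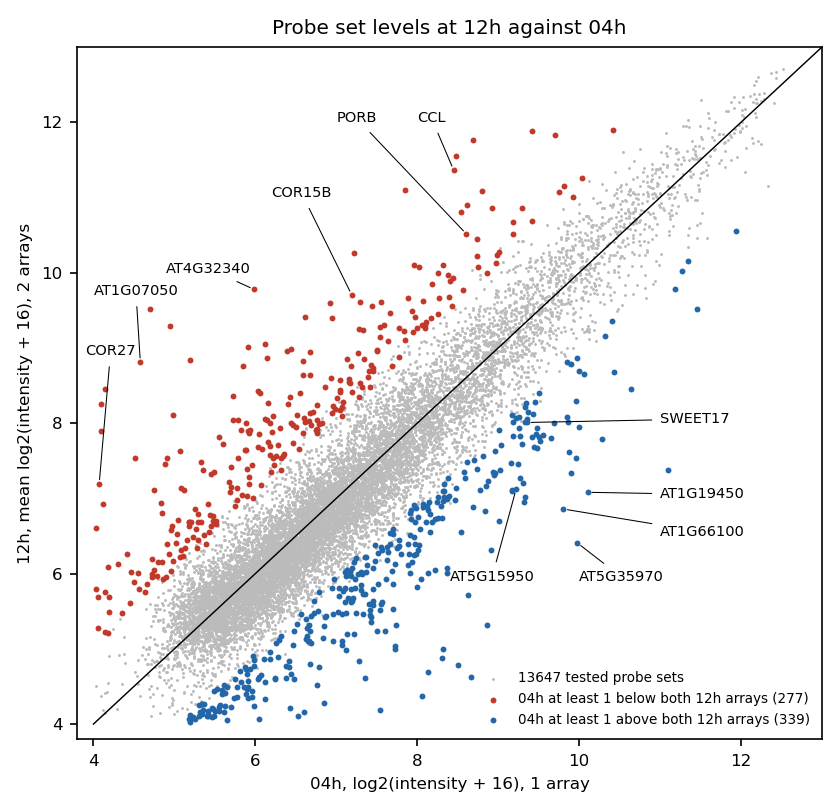
Level of each probe set at 12h (mean of 2 arrays) against 04h (1 array), both as log2(intensity + 16), with the line of equal level. Grey points are the 13647 tested probe sets, red points the 277 with 04h at least 1 log2 unit below both 12h arrays and blue points the 339 with 04h that far above both, including 73 too dim to be tested.

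The genes furthest below the 12h range at 04h included a group that is known for its induction by cold. *COR27*, which encodes a repressor in the circadian clock, had an intensity of 0.8 at 04h, 168.4 at 08h and 141.3 and 120.4 at 12h. It read 176.8 and 217.6 at 00h, 201.8 at 16h and 233.1 at 20h, so 04h was the only hour at which it was near background. Its change from 04h to 12h was 3.12 ± 0.27 log2 units (SE; limma adjusted p = 0.000297), and it was 6.19 with a pseudocount of 1 and 1.59 with a pseudocount of 64.

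*COR15B* and *COR15A* encode chloroplast proteins that protect membranes during freezing. *COR15B* read 17.1 and 25 at 00h, 130 at 04h, 1572 at 08h, 882.3 and 760.3 at 12h, 140.7 at 16h and 34.2 at 20h. Its change from 04h to 12h was 2.52 ± 0.27 (limma adjusted p = 0.000926), and its highest array was that of 08h. *COR15A* read 38 and 21.9 at 00h, 375 at 04h, 1574.7 at 08h, 2452.2 and 1452.8 at 12h, 324.2 at 16h and 46.7 at 20h. Its change was 2.28 ± 0.35 (limma adjusted p = 0.00693), and the 08h value fell within the range of the 12h arrays.

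AT4G30650, placed on the cold list by its locus, read 52.5 and 43.5 at 00h, 213.8 at 04h, 2082.8 at 08h and 2578 and 1829.8 at 12h. It changed by 3.25 ± 0.29 (limma adjusted p = 0.000319). *CCL*, which is known better for its clock-regulated transcript than for cold, read 1544.6 and 1470.9 at 00h, 333.4 at 04h, 2246.2 at 08h, 3261.7 and 2107.8 at 12h, 2572.6 at 16h and 2312.1 at 20h. Like *COR27*, it was lowest at 04h and high at every other hour, and it changed by 2.92 ± 0.38 (limma adjusted p = 0.00306).

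Of 24 loci on the cold-response list 8 were tested. Of these, 5 were higher at 12h by limma, 0 were lower and 8 had a positive change, with a median of 2.40. Over all tested probe sets 1.37% were higher, 1.3% lower and 44.4% positive, with a median of -0.06. The 3 that did not pass were *COR47*, *LTI30* and AT4G33980. AT4G33980 read 0.4 at 04h, 118.5 at 08h and 22.5 and 64.2 at 12h (1.76, limma adjusted p = 0.0569, and 0.000509 with the control block). *COR47*, a dehydrin, read 176 at 04h, 481.3 at 08h and 370 and 175.6 at 12h, and on 12h B it stood at its 04h level. *LTI30*, another dehydrin, read 66 at 04h, 198.2 at 08h and 152.3 and 49.5 at 12h, on both sides of the 04h value. All 8 tested members read higher at 08h than at 04h.

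Of 16 loci on the starch degradation list 2 had a tested probe set. Both rose, beside 1.37% of all tested probe sets. *PWD* (phosphoglucan, water dikinase) phosphorylates starch so that amylases can attack it. It read 147.4 and 148.7 at 00h, 104.8 at 04h, 610.1 at 08h, 685.5 and 842.9 at 12h, 367.4 at 16h and 288.6 at 20h, and changed by 2.68 ± 0.26 (limma adjusted p = 0.000567). *DPE1*, the plastid disproportionating enzyme that acts on maltotriose from starch, read 51.7 on both 00h arrays, 85.8 at 04h, 372.8 at 08h, 373.5 and 389.2 at 12h, 165.8 at 16h and 104.5 at 20h. It changed by 1.96 ± 0.25 (limma adjusted p = 0.00271). Both had nearly reached their 12h level at 08h.

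Of 15 loci listed for starch synthesis 3 were tested. These were *APL3* and *APL4*, large subunits of ADP-glucose pyrophosphorylase, and *SBE2.2*, a branching enzyme. None of the 3 passed, and none had an unadjusted p under 0.05. *APL3* read 215.5 at 04h, 287.9 at 08h and 231.1 and 335.9 at 12h, against 16.1 and 14.2 at 00h and 42.4 at 16h. It was thus already high at 04h, and its change to 12h was 0.35 ± 0.30 (limma adjusted p = 0.672). *SBE2.2* read 416.5 at 04h, 601.7 at 08h and 465.7 and 661.7 at 12h, a change of 0.40 ± 0.28 (limma adjusted p = 0.578).

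**Figure D2:**
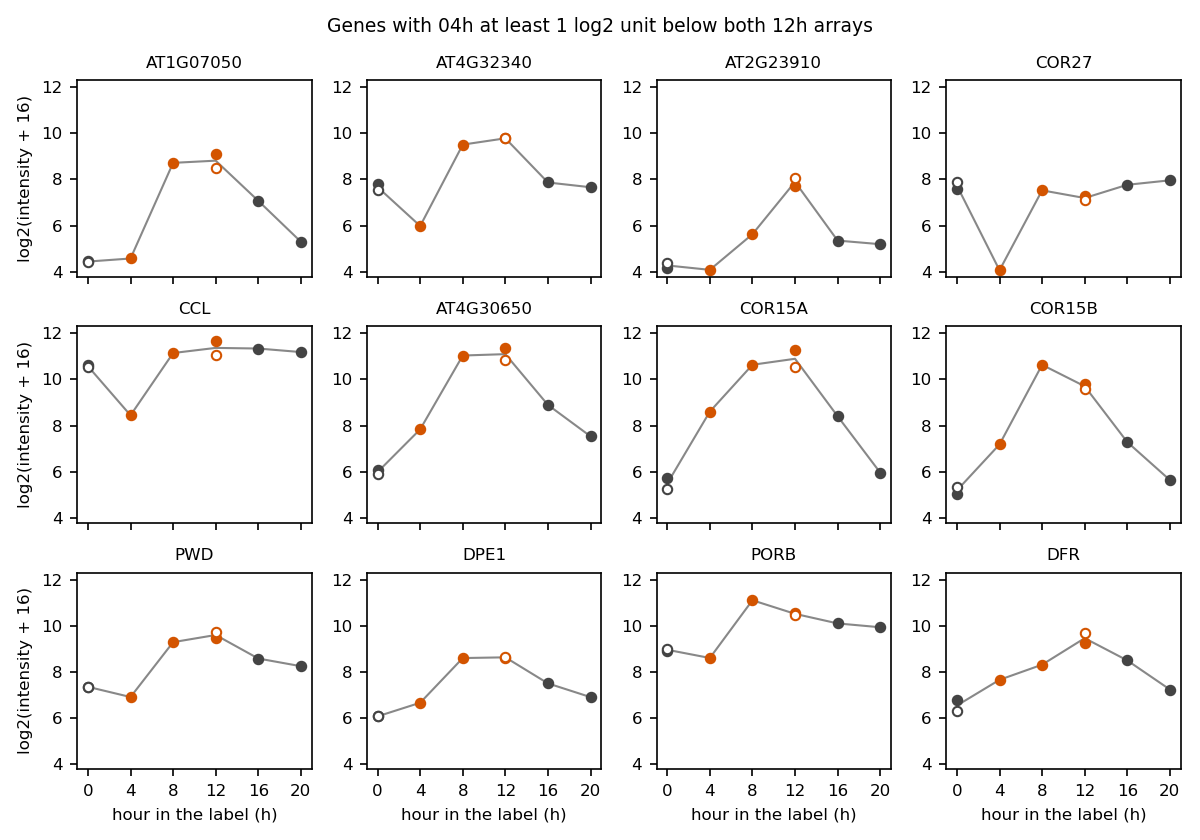
Level of 12 genes that were low at 04h, as log2(intensity + 16), at the 6 labelled hours. Orange points are 04h, 08h and 12h, dark points the other hours, filled points the array A and open points the array B, and the line joins the means. *COR27* and *CCL* dip at 04h alone, while *COR15A*, *COR15B* and AT4G30650 climb from a low level at 00h.

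Of 25 loci listed for flavonoid and anthocyanin synthesis 8 were tested. Of these, *DFR* and *UF3GT* rose and 0 fell, beside 1.37% higher and 1.3% lower over all tested probe sets. *DFR*, dihydroflavonol reductase of anthocyanin synthesis, read 95.9 and 62.5 at 00h, 186.4 at 04h, 302.7 at 08h, 588.8 and 806.4 at 12h, 346.1 at 16h and 135.4 at 20h. It changed by 1.80 ± 0.31 (limma adjusted p = 0.0121), and 08h had covered 36.4% of the way. *UF3GT*, which adds a sugar to anthocyanins, read 10.6 and 26.2 at 00h, 116.4 at 04h, 165.8 at 08h, 323.7 and 414.3 at 12h, 63.7 at 16h and 20.5 at 20h. It changed by 1.53 ± 0.34 (limma adjusted p = 0.0424), a call that was lost with a pseudocount of 1 and without 12h B (adjusted p 0.00113 to 0.2 over the alternatives). *CHIL*, a non-catalytic relative of chalcone isomerase, read 91.6 at 04h, 93.6 at 08h and 222.1 and 227.1 at 12h, a difference of 1.16 ± 0.28 that did not pass (limma adjusted p = 0.0583, and 0.0231 with the control block).

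All 8 tested flavonoid genes had a positive difference, with a median of 1.03, beside 44.4% positive over all tested probe sets. *UGT78D2*, a flavonoid 3-O-glucosyltransferase, read 183.1 at 04h, 210.9 at 08h and 316.1 and 513.7 at 12h, and *UGT78D1*, a flavonol rhamnosyltransferase, read 206.5, 194.2 and then 254.8 and 364.3. Neither passed, but *UGT78D2* did with the control block (limma adjusted p = 0.011). Over all UGT glycosyltransferase genes, 27 were tested and 1, *UF3GT*, was called, beside 1.37% higher over all tested probe sets. The median was -0.22, and 37% had an unadjusted p under 0.05, beside 14.7% of all tested probe sets. *UGT85A5* read 11.6 at 04h, 35.7 at 08h and 49.6 and 43.3 at 12h (1.18, limma adjusted p = 0.0641, and 0.0211 with the control block).

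Of 15 tested serine carboxypeptidase-like genes, a family that holds both proteases and acyltransferases, 3 were higher at 12h and 0 lower, with a median of 0.39, beside 1.37% higher over all tested probe sets. *scpl35* read 81.7 at 04h, 359.9 at 08h and 816 and 537.9 at 12h, a change of 2.80 ± 0.33 (limma adjusted p = 0.00192). *SCPL49*, a carboxypeptidase Y by its synonym, read 171.5 at 04h, 531.3 at 08h and 689 and 855 at 12h (2.06 ± 0.27, limma adjusted p = 0.00353). *SCPL34* read 43.5 at 04h, 82.7 at 08h and 115.1 and 115.4 at 12h (1.14 ± 0.26), and its adjusted p of 0.0495 did not hold with either 12h array left out, with no intensity trend or with a pseudocount of 64, where the change was 0.74.

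In chlorophyll synthesis, *PORB*, the light-dependent protochlorophyllide oxidoreductase, read 463.7 and 501.3 at 00h, 373.6 at 04h, 2183.4 at 08h, 1491 and 1405.4 at 12h, 1082.2 at 16h and 962.8 at 20h. Its change from 04h to 12h was 1.91 ± 0.29 (limma adjusted p = 0.00671), and 08h was the highest array. *CHLM*, the methyltransferase of the same pathway, read 1095.5 at 04h and 1172.2 and 864 at 12h, on both sides of the 04h value. *GI* (GIGANTEA), the only evening clock gene with a named probe set, read 9.2 and 12 at 00h, 70.4 at 04h, 372.3 at 08h, 151 and 184.7 at 12h and 7.8 at 16h. Its highest array was thus 08h, and its difference from 04h to 12h did not pass (1.08 ± 0.29, limma adjusted p = 0.0887, and 0.0199 with the control block).

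On this scale AT1G07050 changed most of the named genes. It read 6.3 and 5.3 at 00h, 7.9 at 04h, 404.4 at 08h, 537.5 and 348.3 at 12h, 118.7 at 16h and 23.5 at 20h. It was near background through 00h and 04h and bright from 08h, with a change of 4.23 ± 0.32 (limma adjusted p = 0.000163; 5.61 with a pseudocount of 1 and 2.79 with 64). The tables used here give no name for this locus.

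AT4G32340 read 204.3 and 171.6 at 00h, 47.3 at 04h, 710.4 at 08h, 862.8 and 860.3 at 12h, 217.4 at 16h and 186.4 at 20h, with a change of 3.79 ± 0.25 (limma adjusted p = 7.58e-05). It had its lowest value at 04h. AT2G23910 read 1 at 04h, 33.5 at 08h and 195.8 and 250.7 at 12h, against at most 24.9 at the other hours, and was thus bright at 12h alone. Its change was 3.81 ± 0.29 (limma adjusted p = 0.000163; 6.80 with a pseudocount of 1 and 2.14 with 64).

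Of the other genes with the largest distances, *MAP1C*, a methionine aminopeptidase that trims the first residue of new proteins, read 107.4 at 04h, 462 at 08h and 661.7 and 649.2 at 12h (2.44 ± 0.25, limma adjusted p = 0.000645). The remaining genes were loci without a name in these tables. AT1G31690 read 41.5 at 04h and 427.6 and 408.5 at 12h, AT4G16146 read 53.7 and then 554.3 and 474, and AT2G21130 read 54.9 and then 461.3 and 442.4. AT3G62550 read 43.9 at 04h and 727.1 and 340.3 at 12h, and AT5G62720 read 70.5 and then 375.4 and 645.8. These 5 loci changed by 2.56 to 3.10 log2 units and all passed.

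The tables give a symbol other than a locus for 33 of the 131 low genes and 17 of the 141 high genes. Of these limma called 23 and 5, while of all 131 and 141 it called 81 and 63. The genes with a symbol were named after their values were seen. *CHL*, the chloroplast lipocalin of thylakoid protection, read 157.8 at 04h, 719.9 at 08h and 721.2 and 746.9 at 12h (2.11 ± 0.26, limma adjusted p = 0.00262). *THIC*, the thiamin synthesis enzyme that makes the pyrimidine ring, read 613.6 at 04h, 1562.3 at 08h and 1961.6 and 1725 at 12h (1.56 ± 0.32, limma adjusted p = 0.0313, lost with either 12h array left out). *ALDH6B2*, which acts in valine breakdown, read 989.4 and 960.5 at 00h, 129.3 at 04h, 340.4 at 08h, 469.7 and 371.1 at 12h, 1055.2 at 16h and 1343 at 20h. It was therefore higher at 12h than at 04h (1.58 ± 0.28, limma adjusted p = 0.0141), but below its levels at 16h, 20h and 00h.

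*OTP81*, a factor of organelle transcript processing, read 16.9 at 04h, 64.6 at 08h and 66.7 and 117 at 12h (1.67 ± 0.34, limma adjusted p = 0.0308, not called with a pseudocount of 1; the change was 0.93 with 64). *LCR69*, a defensin-like gene, read 252.7 at 04h, 1011 at 08h and 679.6 and 880.4 at 12h (1.56 ± 0.32, limma adjusted p = 0.0327, not called without 12h B). *ATLP-1*, *UBC20*, *Fes1B* and *3xHMG-box2* were also called, with changes of 1.66, 1.31, 1.51 and 1.58. With a pseudocount of 64 that of *Fes1B* was 0.85. The *3xHMG-box2* call was lost with either other pseudocount, without 12h B and with no intensity trend.

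Other genes with a symbol were low at 04h without passing. *AUR1* and *AUR2*, Aurora kinases of mitosis, read 38.7 and 27.5 at 04h, 70.5 and 60.5 at 08h, and 101.2 and 120.6 (*AUR1*) and 112.9 and 77.2 (*AUR2*) at 12h. Their differences were 1.21 (limma adjusted p = 0.0585) and 1.33 (0.0661), with adjusted p of 0.0217 and 0.0288 with the control block. *FU*, a kinase of cell plate formation, read 21.4 at 04h, 58.5 at 08h and 82.5 and 65.5 at 12h (1.26, limma adjusted p = 0.0903, and 0.0485 with the control block). Each of the 3 had both 12h arrays above 04h by the rule that put it in the described set.

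The genes high at 04h were led by AT5G35970, which read 205.2 and 240.8 at 00h, 992.4 at 04h, 349.7 at 08h, 57.7 and 81.7 at 12h, 66.9 at 16h and 110.2 at 20h. It fell by 3.57 ± 0.28 log2 units (limma adjusted p = 0.000172), with 08h at 41% of the way. AT1G66100 read 2633.8 and 1457.3 at 00h, 878.6 at 04h, 323.4 at 08h, 99.7 and 100.3 at 12h, 673.9 at 16h and 1039.8 at 20h. It fell by 2.95 ± 0.35 (limma adjusted p = 0.00192), and its 04h level lay on a slope that began at 00h.

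Of the 20 genes on the sugar transporter list 9 were tested, and 1 of these fell by limma. Transporters outside the list, and loci without a name here, were not counted. *SWEET17*, a fructose carrier of the vacuole membrane, read 146.8 and 118.3 at 00h, 639.8 at 04h, 551.9 at 08h, 247.3 and 235.9 at 12h, 202.1 at 16h and 125.9 at 20h. Its highest array was 04h, and it fell by 1.35 ± 0.26 (limma adjusted p = 0.021). *SWEET2*, a glucose carrier of the vacuole membrane, read 600.2 and 228.9 at 00h, 131.9 at 04h, 33.2 at 08h, 36.8 and 33.5 at 12h, 271.3 at 16h and 302.1 at 20h. The wide spread of its 00h arrays accompanied a difference of -1.53 ± 0.44 that did not pass (limma adjusted p = 0.114), while with the control block it was -1.89 (0.00284). Over the 9 tested members of the list 1 was lower at 12h and 0 were higher, with a median of 0.04. Over all tested probe sets 1.3% were lower. *SWEET11*, a sucrose carrier of the phloem, read 628.9 at 04h and 826.2 and 554.7 at 12h.

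AT3G21670 (*NPF6.4*), of the nitrate and peptide transporter family, was the only tested gene of 16 listed for nitrate and ammonium uptake and assimilation. It read 861.7 and 541.2 at 00h, 715.2 at 04h, 119.7 at 08h, 182.7 and 219.7 at 12h, 137 at 16h and 328.2 at 20h, and fell by 1.76 ± 0.31 (limma adjusted p = 0.0147). Its level dropped between 04h and 08h and was no lower at 12h.

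AT5G15950, an S-adenosylmethionine decarboxylase gene, was on the polyamine list by its locus. It read 270.7 and 266.9 at 00h, 580.7 at 04h, 73.7 at 08h, 126.9 and 119.4 at 12h, 41.6 at 16h and 124.3 at 20h. It fell by 2.1 ± 0.25 (limma adjusted p = 0.00196). *SAMDC*, the other tested polyamine gene and also an S-adenosylmethionine decarboxylase, read 2839.1 at 04h and 2392.2 and 2020.1 at 12h (-0.37, limma adjusted p = 0.791).

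AT3G13610 (*F6'H1*), whose enzyme makes the precursor of the coumarin scopoletin, read 54.4 and 87.2 at 00h, 76 at 04h, 12.4 at 08h, 1.6 and 1 at 12h, 16 at 16h and 37.1 at 20h. It fell by 2.41 ± 0.30 (limma adjusted p = 0.00262; -5.08 with a pseudocount of 1 and -1.1 with 64). *CYP71B26*, a cytochrome P450, read 22.1 and 14.5 at 00h, 239.4 at 04h, 206.7 at 08h, 29.5 and 53.7 at 12h, 10.2 at 16h and 9.4 at 20h. It was bright at 04h and 08h alone and fell by 2.18 ± 0.33 (limma adjusted p = 0.00693). It was the only one called of 12 tested P450 genes, beside 1.3% lower over all tested probe sets. The 12 had a median of 0.03, with 6 positive and 6 negative changes. *UGT76B1*, which glucosylates defence-related acids, read 99.2 at 04h, 6.5 at 08h and 4.2 and 2.8 at 12h, but 11.2 and 149.6 at 00h, and its difference of -2.56 ± 0.75 did not pass (limma adjusted p = 0.121), while with the control block it was -1.94 (0.0456).

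**Figure D3:**
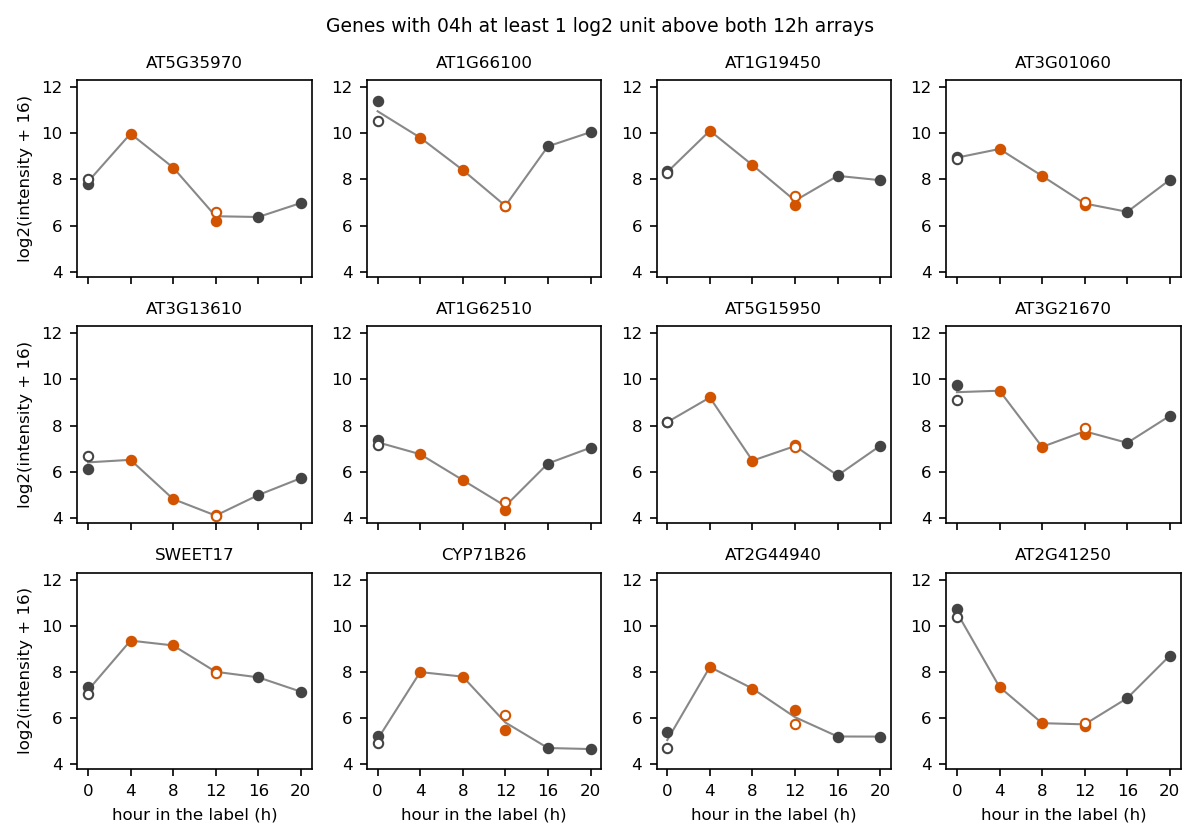
Level of 12 genes that were high at 04h, as log2(intensity + 16), at the 6 labelled hours, with orange points for 04h, 08h and 12h, dark points for the other hours, filled points for the array A and open points for the array B. The line joins the means. AT5G35970, AT1G19450, AT3G01060, AT5G15950, *SWEET17*, *CYP71B26* and AT2G44940 peak at 04h, and AT1G66100, AT1G62510 and AT2G41250 are highest at 00h.

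Other loci with large falls have no name in these tables. AT1G19450 read 308.6 and 297.4 at 00h, 1086.3 at 04h, 377.6 at 08h and 101.6 and 139.8 at 12h, and fell by 3.03 ± 0.27 (limma adjusted p = 0.000319). AT3G01060 read 621.5 at 04h, 268 at 08h and 103.5 and 113.3 at 12h (-2.36 ± 0.25, limma adjusted p = 0.000868). AT2G44940 read 26.1 and 10.3 at 00h, 281.2 at 04h, 139.8 at 08h, 64.9 and 37.9 at 12h and 21 at 16h. Its change was -2.17 ± 0.37 (limma adjusted p = 0.012, not called with a pseudocount of 1). AT1G62510, AT5G02180, AT1G76240 and AT4G12980 fell as well, by 2.24, 2.02, 2.03 and 2.13. The first 3 of these were dim at 12h, and with pseudocounts of 1 and 64 the change was -3.60 and -1.14 for AT1G62510, -2.63 and -1.22 for AT5G02180, and -2.98 and -1.08 for AT1G76240. AT1G57630 had a difference of -1.98 that did not pass (limma adjusted p = 0.0859, and 0.0261 with the control block), and AT1G13650 and AT2G15020 were too dim on average to be tested.

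Of the high genes with a symbol, *GR1*, a glutathione reductase that keeps glutathione reduced, read 414 and 515.9 at 00h, 791 at 04h, 331.8 at 08h and 173 and 245.4 at 12h (-1.86 ± 0.29, limma adjusted p = 0.00779). *AAPT2*, an aminoalcohol phosphotransferase of phospholipid synthesis, read 307.1 at 04h, 164.1 at 08h and 118.4 and 124 at 12h (-1.24 ± 0.25, limma adjusted p = 0.0266). *CYTC-2*, a cytochrome c of the respiratory chain, read 410.6 at 04h, 184.2 at 08h and 176.8 and 129.2 at 12h (-1.35 ± 0.29, limma adjusted p = 0.0382). The *CYTC-2* call was lost with a pseudocount of 1, with arrays scaled to a common median, without 12h B and with no intensity trend. *PPDK*, pyruvate orthophosphate dikinase, read 995.5 and 1303.5 at 00h, 499.3 at 04h, 204 at 08h, 219.7 and 229.9 at 12h and 1031.4 at 16h, and its difference of -1.1 did not pass (limma adjusted p = 0.0761, and 0.0204 with the control block).

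Among the photosynthesis genes with a named probe set, *LHCB4.2*, a minor antenna protein of photosystem II, read 3897.9 at 04h, 2962.8 at 08h and 1557.3 and 1425.4 at 12h. Its 12h arrays both lay below 04h, as the rule of the described set requires. The difference of -1.38 ± 0.37 did not pass (limma adjusted p = 0.0889). With the control block it was -1.47 and passed (limma adjusted p = 0.000647). Its relative *LHCB4.1* read 4521.4 at 04h and 6294.7 and 3823.8 at 12h, on both sides of 04h. *RCA*, Rubisco activase, read 4232.4 at 04h and 2897.6 and 2299.9 at 12h (-0.71 ± 0.54, limma adjusted p = 0.612). It passed with the control block at -1.08 (limma adjusted p = 0.0185) but not with a block by the letter A or B. Over the alternatives its change ranged from -1.08 to -0.34.

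Of 69 tested plastid-encoded genes, 1 was higher at 12h and 0 lower, with a median of -0.11 and 10 with an unadjusted p under 0.05 (14.5%). Over all tested probe sets 1.37% were higher and 14.7% had an unadjusted p under 0.05, so these shares were near the background. With the control block 4 plastid-encoded genes were higher and 8 lower, beside 430 higher and 520 lower of all 13647 tested probe sets. *rpoB*, a subunit of the plastid RNA polymerase, read 42.8 at 04h, 54.2 at 08h and 155.1 and 217.1 at 12h (1.76 ± 0.32, limma adjusted p = 0.018). *psbK*, a small subunit of photosystem II, went the other way without passing, with 2582.9 at 04h, 2248 at 08h and 1243.4 and 1023.5 at 12h (-1.18 ± 0.50, limma adjusted p = 0.294, and 0.0026 with the control block). Its 00h arrays read 2525.4 and 1023.2, a spread as wide as its difference between 04h and 12h.

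Of 21 listed genes that mark sugar starvation 7 were tested. By limma 0 of these passed, and the median was 0.27. Among them 2 had an unadjusted p under 0.05 (28.6%, beside 14.7% of all tested probe sets). AT2G20670 read 1747 and 928.8 at 00h, 26.7 at 04h, 6.7 at 08h, 2.1 and 2 at 12h, 1019.2 at 16h and 1305.8 at 20h. It was thus already far down at 04h, and its further difference to 12h was -1.24 ± 0.35 (limma adjusted p = 0.107, and 0.0075 with the control block; -3.18 with a pseudocount of 1 and -0.46 with 64). AT5G57655 read 96.5 at 04h, 38.3 at 08h and 43.2 and 29.4 at 12h (-1.12, limma adjusted p = 0.0583, and 0.0105 with the control block). *MCCB*, a subunit of methylcrotonyl-CoA carboxylase in leucine breakdown, read 139.9 at 04h and 172.1 and 184 at 12h.

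Of the 9 tested *ATG8* genes, whose proteins coat autophagosomes, 0 passed, with a median of 0.03. An unadjusted p under 0.05 was found for 1 (11.1%, beside 14.7% of all tested probe sets). *ATG8D* was that far out alone, with 65.3 at 04h, 146.5 at 08h and 197.3 and 152.9 at 12h (1.22 ± 0.30, limma adjusted p = 0.0664, and 0.0181 with the control block). Among 89 tested genes of cytosolic ribosomal proteins 0 were called, beside 1.37% higher and 1.3% lower over all tested probe sets. An unadjusted p under 0.05 was rarer among them, with 3 (3.4%), than over all (14.7%). Their median was 0.21, with 71 positive (79.8%) and 18 negative, beside -0.06 and 44.4% positive for all tested probe sets.

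Among 40 gene lists, 27 had at least 3 tested members. In 20 of these no member passed by limma, and 32 of their 208 tested members, counted once per list, had an unadjusted p under 0.05 (15.4%, beside 14.7% of all tested probe sets). These 20 included the Calvin-Benson cycle (3 of 17 listed loci tested) and photorespiration (3 of 11). Tubulins (median 0.51 over 7), histones (0.41 over 6) and expansins and xyloglucan endotransglucosylases (-0.04 over 12) were also among them. So were the WRKY (-0.02 over 6) and bZIP (-0.23 over 11) factors. The share with an unadjusted p under 0.05 differed between these lists. It was 66.7% for the expansins and xyloglucan endotransglucosylases, with 6 positive and 6 negative changes, 57.1% for tubulins and 33.3% for histones. It was 3.4% for the 89 ribosomal protein genes and 0% for the WRKY, Calvin-Benson and photorespiration lists. *EXLB1*, an expansin-like gene, read 56.5 at 04h and 206.2 and 179.1 at 12h (1.52, limma adjusted p = 0.0583, and 0.0048 with the control block), and *EXPA8* read 93.8 and then 32.2 and 26.7 (-1.28, limma adjusted p = 0.175, and 0.00761 with the control block). The 4 reference genes had changes between -0.15 and 0.06.

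**Figure D4:**
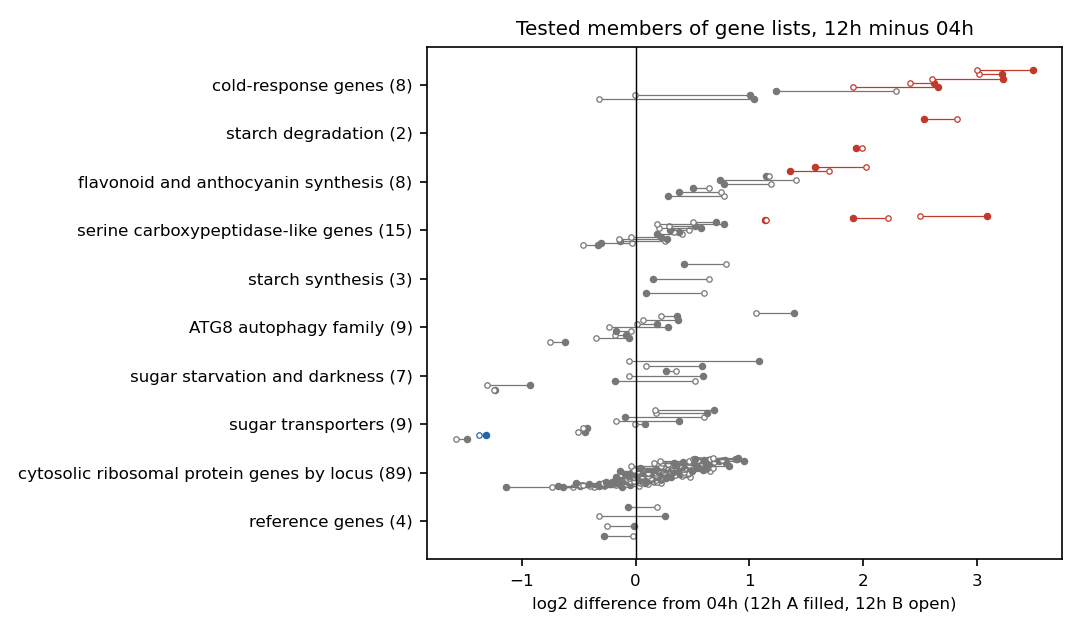
Difference from 04h in log2(intensity + 16) for each tested member of 10 gene lists, with the number tested in brackets. Filled points are 12h A minus 04h and open points 12h B minus 04h, joined by a line, and red or blue marks members higher or lower at 12h by limma. All 8 tested cold-response and all 8 tested flavonoid genes have a positive mean, and the reference genes lie around 0.

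The 08h array showed how the difference between 04h and 12h was spread in time. Of the 277 low probe sets, 176 had 08h between 04h and the nearer 12h array (63.5%), 40 within the 12h range (14.4%), 55 beyond both 12h arrays (19.9%) and 6 at or beyond 04h (2.17%). Among the 339 high probe sets the counts were 261 (77%), 37 (10.9%), 32 (9.44%) and 9 (2.65%). At 08h the median low probe set had covered 78.6% of the way from 04h to the 12h mean (quartiles 57.2% and 100.1%), and the median high probe set 63.7% (42.8% and 86.3%). The set was chosen partly on the error of the 04h array, which by itself places 08h nearer to 12h, so the shares describe these arrays.

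In log2 units the median low probe set differed by 1.14 from 04h to 08h and by 0.31 from 08h to the 12h mean. The median high probe set differed by -0.98 and then by -0.56. A step of at least 1 log2 unit upward was seen at 163 of the 277 between 04h and 08h and at 31 between 08h and 12h. Downward steps of that size were seen at 166 and at 56 of the 339. Over all 22746 probe sets, 318 rose and 338 fell by that much from 04h to 08h. From 08h, 200 rose and 362 fell to 12h A, and 146 rose and 208 fell to 12h B. The error of the 04h array, on which the set was partly chosen, enters the first step and not the second. The sizes of the steps therefore describe these arrays and do not give a rate of change.

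**Figure D5:**
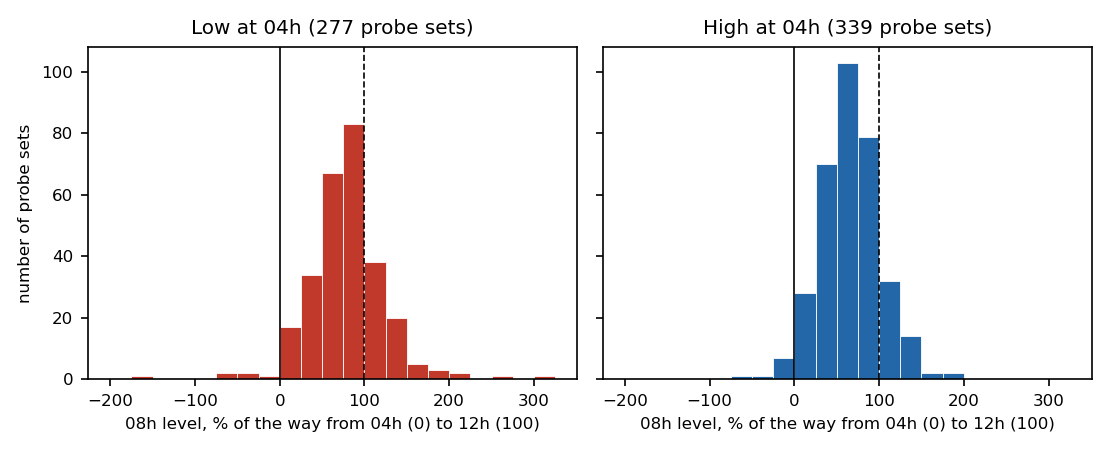
Histogram of where the 08h level stood on the way from 04h (0%, solid line) to the mean of the 12h arrays (100%, dashed line), in log2(intensity + 16), for the 277 probe sets low and the 339 high at 04h. Bars count probe sets in steps of 25%, and the medians are 78.6% and 63.7%.

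Genes at the slow end included *CYP71B26*, *rpoB* and *SWEET17*, for which 08h had covered 9.1%, 14.5% and 15.4% of the way. AT2G23910 stood at 40.5% and AT1G19450 at 49.1%. At the quick end *DPE1* stood at 98.4%, AT1G07050 at 97.8% and *CCL* at 92.4%. Beyond the 12h level at 08h were *COR27* (110.6%), *PORB* (130.8%), AT5G15950 (130.1%), *COR15B* (136.9%), AT3G21670 (138.3%) and AT3G56290 (139.1%). AT3G56290 read 445.9 at 04h, 74.8 at 08h and 120 and 135.4 at 12h.

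A limma contrast asked whether 08h departed from the midpoint of 04h and 12h. Of 13647 probe sets 36 passed (0.264%), with 27 above the midpoint (0.198%) and 9 below (0.0659%), and 712 had an unadjusted p under 0.05. Without the filter on dim probe sets 0 passed by limma. AT5G62360 was furthest above, with 6.1 at 04h, 361.6 at 08h and 71.6 and 32.1 at 12h, a departure of 3.32 ± 0.39 (limma adjusted p = 0.00988). AT1G56300 read 49.9 at 04h, 654.3 at 08h and 195.6 and 236.5 at 12h (2.44 ± 0.26, limma adjusted p = 0.00959). Both were brightest at 08h.

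*COR15B* departed upward by 2.19 ± 0.26 (limma adjusted p = 0.00988) and *COR27* by 1.89 ± 0.26 (0.0227). AT1G20030, AT4G14270 and AT1G53035 departed by 2.23, 2.08 and 2.04, each with its highest array of the 3 hours at 08h. Furthest below the midpoint was AT3G28270, with 155.6 at 04h, 21.2 at 08h and 506.2 and 353.5 at 12h (-2.88 ± 0.29, limma adjusted p = 0.00959). AT1G65490 read 532.1 at 04h, 63.2 at 08h and 273.5 and 293.1 at 12h (-2.35 ± 0.26, limma adjusted p = 0.00988). These 2 loci had a trough at 08h. AT5G15950 and AT3G56290 lay below it, with departures of -1.68 and -1.5, in the direction opposite to the genes above.

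At the edge of the description, AT4G15700 was just inside for low genes, with 15.1 at 04h and 52.9 and 46.9 at 12h, and AT1G66430 just outside, with 145.6 and then 306.1 and 353.6. For high genes *AOR* was just inside, with 1339.5 at 04h and 620.5 and 661.3 at 12h. *AGL30*, just outside, read 22.6 at 04h and 3.5 and 1.6 at 12h.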

How the data were processed

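The deposited values are linear intensities, 1 for each probe set on each array, made with MAS5 per the submitters' processing notes, which give no version. The authors' values have a mean of 100 on every array after trimming 2% at each end, so a difference in total mRNA between hours is not visible. They were transformed to log2(value + 16), which understates changes of dim probe sets. The 64 controls were left out, and before tests the 40% of probe sets with the lowest mean, which left 13647 of 22746.

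Tests used limma 3.58.1 in R 4.3.3 (lmFit with the hour as a factor on 8 arrays, eBayes with trend = TRUE), and p-values were adjusted by the Benjamini-Hochberg method over all tested probe sets. The 2 residual degrees of freedom come from 00h and 12h, and single arrays are assumed to vary alike. Gene names came from the annotation table of the platform (1 gene for 13513, several for 503, none for 8730) and RefSeq TAIR10.1, which matched 13484. No sequence table was used.

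Named were, among probe sets with 1 gene, the 15 largest distances from 04h to the nearer 12h array in each direction, list members at a distance of at least 1 (up to 5 in each direction, and every member of lists of up to 6), the 2 nearest to the edge on each side, the 4 largest per position of 08h, the 6 highest and lowest past the midpoint test, and tissue markers. The text gives a part of these in full and others in ranges or not at all. Named outside this rule were all genes with a symbol in the described set, and some further list members quoted for contrast. The members, lists and rules were chosen with earlier results of these data known, and the lists of gene families and of ribosomal proteins were written after the gene table was seen. The number of arrays limits the precision. Alternatives varied the pseudocount, scaling, filter, trend, blocks and arrays used.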

Additional observations from a re-analysis of the deposited data

How the results depend on the processing

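No change between 04h and 12h of a named gene that had passed reversed under any alternative run. For 12h vs 04h, 364 probe sets passed, and 39 (21 higher, 18 lower) without the filter on dim probe sets, 1089 with the replicate block, 950 with the level of the hybridisation controls as a block, 806 with the arrays of 04h, 08h and 12h alone, and 452 to 838 with 1 array left out (452 without 12h A, 487 without 12h B, 830 without 00h A, 838 without 00h B). The replicate block used the letter A or B. The labels do not say what a letter marks, and 04h has no array B. A minus B at 00h and at 12h correlated at 0.297 across 13647 probe sets, and both A arrays had high hybridisation controls while both B arrays had low ones. For 08h against the midpoint, 36 passed, and 0 without the filter (limma), 190 with the replicate block, 195 with the control level as a block, 149 with the arrays of 04h, 08h and 12h alone, and 83 to 167 with 1 array left out (100 without 12h A, 83 without 12h B, 163 without 00h A, 167 without 00h B). The 616 probe sets outside the range became 2159 with a pseudocount of 1, 272 with a pseudocount of 64, and 1046 or 1192 against 12h B or 12h A alone, where the rule asks for less. The other causes were not tested, except that the filter sets how many dim probe sets are tested. The degrees of freedom that eBayes added from all probe sets also differed between the fits. They were 8.2 in the main fit, 3.25 without the filter and 13.6 with either block. With the arrays of 04h, 08h and 12h alone they were 177.9, and without 00h A or 00h B 318.5 and 373.6. What part this had in the counts was not tested. Pseudocounts of 1 and 64, a common median, a stricter filter and no trend gave 303 to 375 calls for 12h vs 04h. Of 58 named genes past the threshold 14 stayed past it without the filter: AT1G07050, AT4G32340, AT2G23910, *COR27*, AT4G30650, AT4G16146, AT2G21130, *PWD*, *MAP1C*, *COR15B*, AT5G35970, AT1G19450, AT3G01060 and AT5G15950. Another alternative ended 11 of the 58 calls, those of AT3G28270, AT2G44940, AT5G48540, *UF3GT*, *SCPL34*, AT1G20030, *3xHMG-box2*, *CYTC-2*, *LCR69*, *OTP81* and *THIC*. For AT3G28270 these were a pseudocount of 1, leaving out 12h A and no trend, and for AT1G20030 a pseudocount of 1 and leaving out 12h A. With 1 array at 04h, no alternative could leave that array out.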
